A study of Mus musculus with 13 samples.

Results

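R-loops over the starts of long noncoding RNA (lncRNA) genes were described in N2a cells, a mouse neuroblastoma line, from DRIP-seq peaks. A start was taken from genes of gene_type lincRNA in the mm9 annotation GENCODE vM1 and widened by 1000 bases on each side, and starts within 1000 bases of a protein_coding transcript start were left out. Of 1273 such genes, 578 were left out and 695 remained, among 37310 annotated gene starts. The annotation holds 0 genes of gene_type antisense, so position against coding genes was used to mark antisense starts. By position, 273 of the 695 starts lay inside a coding gene on its opposite strand, 402 lay outside coding genes and 20 lay on the same strand inside one. A few genes typed as lincRNA in this annotation carry the name of a coding gene, such as Ppp1r3e and Abhd1.

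Cells had been transfected with siScramble, a control siRNA, or with siRNA against DDX1 or EXOSC3, named siDDX1 and siEXOSC3. The S9.6 antibody served to isolate DNA-RNA hybrids from DNA that had been cut by BsrGI, EcoRI, HindIII, SspI and XbaI. RNase H degrades the RNA of a hybrid. Each group had 3 libraries without RNase H digestion before the antibody step, called untreated, and 1 library from DNA digested before it. Per the study's methods, the isolated hybrids were also treated with RNase H before they were made into libraries. All cells were siRNA-transfected pools of 1 cell line, and the peak lists hold no measure of the DDX1 or EXOSC3 transcript, so the targeted gene could not be checked here.

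In 12 of 12 lists the peak names carried another treatment than the sample title, in 1 rotation. Lists titled siScramble held peaks named siDDX1, lists titled siDDX1 held peaks named siEXOSC3, and lists titled siEXOSC3 held peaks named for the scramble control. Libraries are named by title below, and every direction between groups depends on that choice, while values pooled over the 9 untreated libraries and RNase H comparisons averaged over the groups do not. The untreated lists held 23882 to 42571 peaks and the RNase H lists 3811 to 8034, and the read depth behind them is unknown here. Of 12 marker genes of sympathetic neuroblasts, 5 had a peak at their start in at least 1 untreated library, and Phox2a, Hand2 and Tubb3 had one in all 9. Of 7 markers of other cell types, 0 had one. A peak at a start is no measure of expression.

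An R-loop forms when a transcript pairs with its template DNA and leaves the other DNA strand single. Starts of transcription are known sites of R-loops, above all where the DNA is rich in G and C and holds many CpG dinucleotides. Many lncRNAs stay in the nucleus and are degraded there by the RNA exosome, of which EXOSC3 is a cap subunit, and DDX1 is a putative helicase that acts on RNA and on hybrids of RNA and DNA.

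To show the DNA under these windows, 300 bases around 4 starts were read from mm9, from 250 bases upstream of the start to 49 bases downstream, on the strand of the gene, with each CpG in capitals. The first 3 were those with the highest median fold enrichment among starts with a peak in all 9 untreated libraries, leaving out sequence inside a UTR of a coding transcript or on a chromosome not printed here. Gm14004 had peaks in the 3 RNase H libraries and in no untreated one.
2410006H16Rik, chr11:62416129-62416428 (plus strand), 31 CpG: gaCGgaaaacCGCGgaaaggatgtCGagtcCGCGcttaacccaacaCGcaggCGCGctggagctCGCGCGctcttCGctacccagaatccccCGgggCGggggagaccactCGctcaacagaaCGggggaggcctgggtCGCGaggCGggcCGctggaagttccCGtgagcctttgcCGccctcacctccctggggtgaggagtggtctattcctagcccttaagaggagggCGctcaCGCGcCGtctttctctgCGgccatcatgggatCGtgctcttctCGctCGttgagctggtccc
Snhg7, chr2:26495715-26496014 (minus strand), 20 CpG: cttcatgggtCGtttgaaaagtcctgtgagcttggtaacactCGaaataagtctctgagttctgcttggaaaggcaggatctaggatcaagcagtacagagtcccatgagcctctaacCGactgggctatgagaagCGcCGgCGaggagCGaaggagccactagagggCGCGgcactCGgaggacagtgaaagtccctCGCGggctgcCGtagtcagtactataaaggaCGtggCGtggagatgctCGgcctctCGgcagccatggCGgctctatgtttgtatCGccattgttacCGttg
9430008C03Rik (Snhg17), chr2:158187267-158187566 (minus strand), 11 CpG: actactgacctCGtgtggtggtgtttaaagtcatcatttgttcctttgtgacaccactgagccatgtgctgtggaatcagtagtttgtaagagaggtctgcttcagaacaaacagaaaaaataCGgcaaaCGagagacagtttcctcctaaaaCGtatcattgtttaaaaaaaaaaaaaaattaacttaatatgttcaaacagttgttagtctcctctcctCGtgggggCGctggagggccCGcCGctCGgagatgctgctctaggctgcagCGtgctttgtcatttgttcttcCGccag
Gm14004, chr2:124960014-124960313 (minus strand), 3 CpG: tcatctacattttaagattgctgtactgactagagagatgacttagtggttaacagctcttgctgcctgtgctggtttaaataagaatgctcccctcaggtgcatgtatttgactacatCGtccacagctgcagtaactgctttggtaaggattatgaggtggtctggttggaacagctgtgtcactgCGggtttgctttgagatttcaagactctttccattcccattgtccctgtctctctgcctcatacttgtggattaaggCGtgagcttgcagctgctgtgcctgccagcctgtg

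The G and C content of these 300 bases was 65.7% at 2410006H16Rik, 55.3% at Snhg7, 44.7% at 9430008C03Rik and 47.0% at Gm14004. The 3 recurrent starts thus lay on both sides of Gm14004 in G and C content, while each held more CpG.

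Because the DNA was cut with restriction enzymes, the edge of a peak can be the end of a fragment. At 2210408F21Rik a peak of 5574 bases, chr6:31165565-31171138, had exactly the same edges in 8 of 9 untreated libraries. At Snhg7 a peak of 9960 bases, chr2:26486132-26496091, had the same edges in 6. The 30 bases around both edges of each, on the plus strand, hold a recognition site at the edge, shown in capitals. A HindIII site directly after the XbaI site at the left edge of Snhg7 is left in lower case.
2210408F21Rik left edge (BsrGI), chr6:31165550-31165579: acaacagaaatccaTGTACAgaaattcggg
2210408F21Rik right edge (BsrGI), chr6:31171124-31171153: aatggccaccTGTACActccagggttcacc
Snhg7 left edge (XbaI), chr2:26486117-26486146: ctggaaatcttcatTCTAGAaagcttcctg
Snhg7 right edge (HindIII), chr2:26496077-26496106: agtgatactaAAGCTTccacgcaaagagga

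Over the peaks at lncRNA starts, the left edge lay exactly on a cut of 1 of the 5 enzymes in 40.0% ± 5.53 of cases (SD, n = 9) and the right edge in 41.0% ± 3.69. At least 1 edge did so in 65.6% ± 4.58 of these peaks. Over all untreated peaks of the genome, 31.8% of left edges were on a cut, against 0.112% when edges were shifted by 300 bases.

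The first question was how often a lncRNA start carried an R-loop peak, and whether digestion with RNase H removed it. A library counted as having a peak at a start, and the start as called in it, if a peak covered 1 or more bases of the window. Among the 3 siScramble libraries 14.2%, 18.99% and 18.7% of the 695 starts were called, that is 99, 132 and 130 starts. Among the siDDX1 libraries the shares were 19.9%, 12.1% and 14.1%, and among the siEXOSC3 libraries 16.4%, 16.5% and 20.6%. All 9 untreated libraries thus lay between 12.1% and 20.6%, and the groups overlapped.

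In the RNase H libraries 1.15%, 0.432% and 0.863% of starts were called, or 8, 3 and 6 starts, for siScramble, siDDX1 and siEXOSC3. Exact 95% binomial intervals of these shares, which cover counting error only, ran from 0.498% to 2.26%, from 0.0891% to 1.26% and from 0.317% to 1.87%. Each RNase H library lay below every untreated library. The share fell by 16.0 percentage points with RNase H, as the mean over the 3 groups (exact permutation test with the RNase H label moved within each group, two-sided p = 0.0156, adjusted over 3 RNase H comparisons 0.0156). That is the smallest p the 64 assignments allow. Among starts outside coding genes the difference was -10.3 points.

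**Figure D1:**
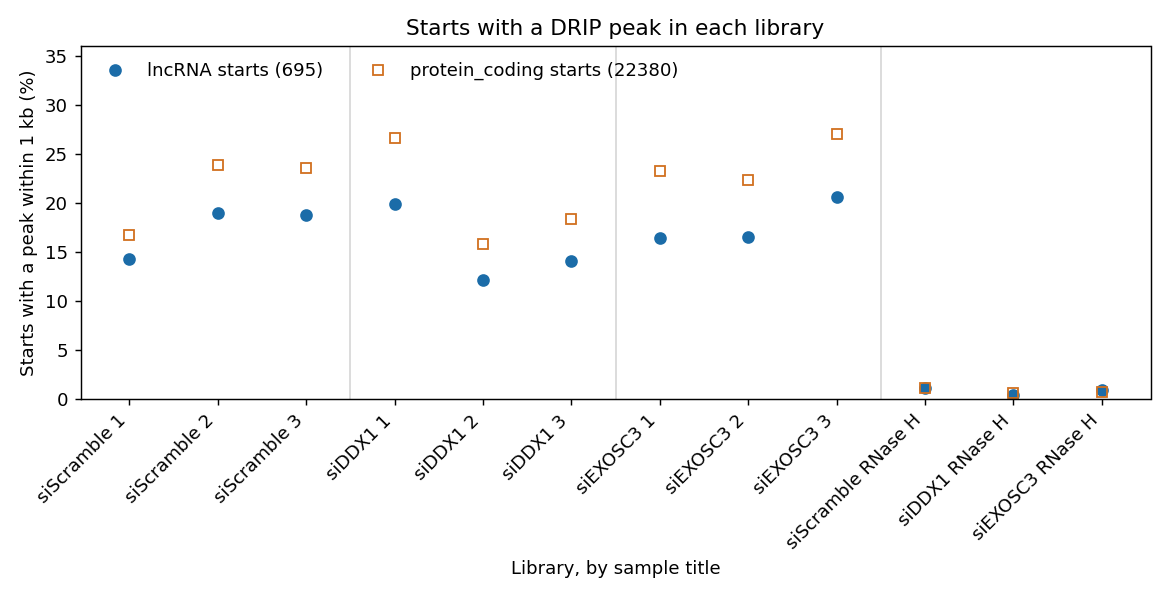
Share of starts with a peak within 1000 bases (y axis, percent) in each of the 12 libraries (x axis, named by sample title), for 695 lncRNA starts (filled circles) and 22380 protein_coding starts (open squares). Every untreated library lies between 12.1% and 20.6% for lncRNA starts and below its own coding value, and the 3 RNase H libraries lie at 1.15% or less for lncRNA starts.

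Starts of protein_coding genes, measured in the same libraries, served as the comparison. They were called in 21.9% ± 4.07 (SD, n = 9) of cases, against 16.8% ± 2.92 for lncRNA starts. The lncRNA share was lower in 9 of 9 libraries, by 2.51 to 6.89 points, and by 5.10 points on average (exact permutation test with signs flipped within libraries, two-sided p = 0.00391, adjusted over 3 comparisons within libraries 0.00586). This p is the smallest that the 512 sign assignments allow, and it does not cover the spread between starts. Only lncRNA starts had been filtered by distance to a coding start, and the part of that rule in the difference was not tested. The difference was -10.6 points with lncRNA starts outside coding genes alone and -8.10 points without lncRNA starts within 5 kb of a coding start. The direction differed by CpG content, in a split chosen after seeing the data. The split pooled lncRNA starts inside and outside coding genes and was not repeated on those outside alone. With a CpG ratio, the observed over the expected number of CpG in the 2001 bases of the window, of 0.6 or more, 30.5% ± 6.82 of 81 lncRNA starts and 43.5% ± 7.49 of 7555 coding starts were called, a difference of -13.1 points (exact permutation test, p = 0.00391). Below that ratio 15.0% ± 2.57 of 614 lncRNA starts and 10.9% ± 2.36 of 14825 coding starts were called, so that lncRNA starts were higher by 4.10 points (exact permutation test, p = 0.00391). Only 11.7% of lncRNA starts reached the ratio, against 33.8% of coding starts.

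With RNase H the 2 kinds of start came to like shares, 0.815% ± 0.362 of lncRNA starts and 0.800% ± 0.296 of coding starts (SD, n = 3). On the log2 scale, with 1 window added to each count, the loss was therefore smaller at lncRNA starts than at coding starts, by 0.61 (exact permutation test, p = 0.0156, adjusted 0.0156). This value rests on 3 to 8 lncRNA windows per RNase H library and ranged from 0.36 with no window added to 1.60 over starts outside coding genes. As the shares with RNase H were alike, it largely restates the lower untreated share of lncRNA starts and is no separate result. It compares counts of windows, not loss at the same starts, as 9 of the 13 lncRNA starts with an RNase H peak had no untreated one.

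Most starts with an RNase H peak had no untreated peak. In all, 13 lncRNA starts, 1.87%, were called in at least 1 RNase H library, against 1.56% of all annotated starts. Of these, 9 had no peak in any untreated library, 3 had one in 1 to 8 libraries, and 1, Gm17358, had one in all 9. At Gm17358 the RNase H peak, chr17:46411414-46411996, did not overlap the strongest untreated peaks, which lay upstream of it. Of 198 starts called in at least 1 untreated library, 194 had no RNase H peak, and of 58 called in all 9, 57 had none. Counted within groups, the RNase H library called 1 of 156 starts with a siScramble peak, 0 of 152 with a siDDX1 peak and 2 of 166 with a siEXOSC3 peak.

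Gm14004, a predicted lncRNA gene whose nearest coding start is that of Ctxn2, was the lone start called in all 3 RNase H libraries. Its peaks had fold enrichments over background of 5.78, 7.85 and 7.53 in the siScramble, siDDX1 and siEXOSC3 RNase H libraries and widths of 453, 945 and 940 bases, and they covered the start base itself. A430010J10Rik had peaks in 2 RNase H libraries, at 7.32-fold and 6.93-fold, and in no untreated one. 1810019N24Rik had RNase H peaks of 17.0-fold and 8.94-fold and 1 untreated peak of 6.03-fold, in siScramble replicate 3. Peaks at these 3 starts were thus found mainly in the RNase H libraries.

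Peaks that did appear after RNase H were narrow. Their median widths were 326, 326 and 294 bases in the siScramble, siDDX1 and siEXOSC3 RNase H libraries, over 8, 3 and 6 peaks. Those of the untreated libraries ran from 661 to 1415 bases (mean 993 ± 237, SD, n = 9). The difference was -1.62 on the log2 scale (exact permutation test, p = 0.0156, adjusted 0.0156). It ranged from -0.85 when a peak had to have its midpoint in the window to -3.01 when peaks with gaps of at most 1000 bases were merged. Peaks at coding starts were narrower with RNase H as well, which was not tested. Their median widths were 395 ± 22.7 bases (SD, n = 3) with RNase H and 842 ± 114 (SD, n = 9) in untreated libraries.

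Around the start, the share of lncRNA starts under a peak at a single base was 8.89% at the start itself, reached 9.32% at 300 bases downstream and was 4.32% and 4.46% at 10 kb upstream and downstream, as the mean of the 9 untreated libraries. Coding starts reached 13.2% at the start and had 4.38% at 2 kb upstream, where lncRNA starts had 6.12%. For the 426 lncRNA starts over 10 kb from a coding start the share was 6.16% at the start and 2.50% and 2.97% at 10 kb to either side. With RNase H it was 0.144% at lncRNA starts. A peak covered the start base itself in 52.6% ± 4.92 (SD, n = 9) of called windows. In the others it lay to the side.

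**Figure D2:**
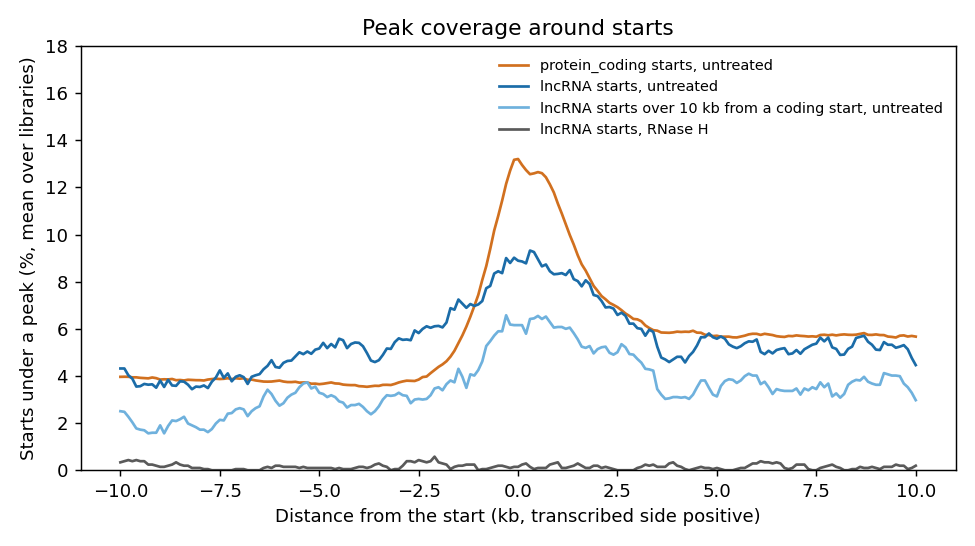
Share of starts that lie under a peak (y axis, percent, mean over libraries) by distance from the start (x axis, kb, transcribed side positive) for coding starts, all lncRNA starts, lncRNA starts over 10 kb from a coding start, and lncRNA starts after RNase H. At the start the lncRNA curve stands at 8.89%, below the coding curve at 13.2%, while at 2 kb upstream it stands at 6.12%, above the coding curve at 4.38%, and the RNase H curve stays below 1% throughout.

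Recurrence across the 9 untreated libraries was uneven. Of the 695 starts, 497 were called in none, 33 in 1 only, 107 in 2 to 8 and 58 in all 9. Those called in at least 1 library made up 28.5%, against 26.0% of all annotated starts, and those called in all 9 made up 8.35%, against 8.54%, so both shares were near the background. Coding starts were called in all 9 in 11.2% of cases. Given at least 1 call, 29.3% of lncRNA starts and 32.7% of coding starts were called in all 9. The count of 58 fell to 19 when a peak's midpoint had to lie in the window.

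**Figure D3:**
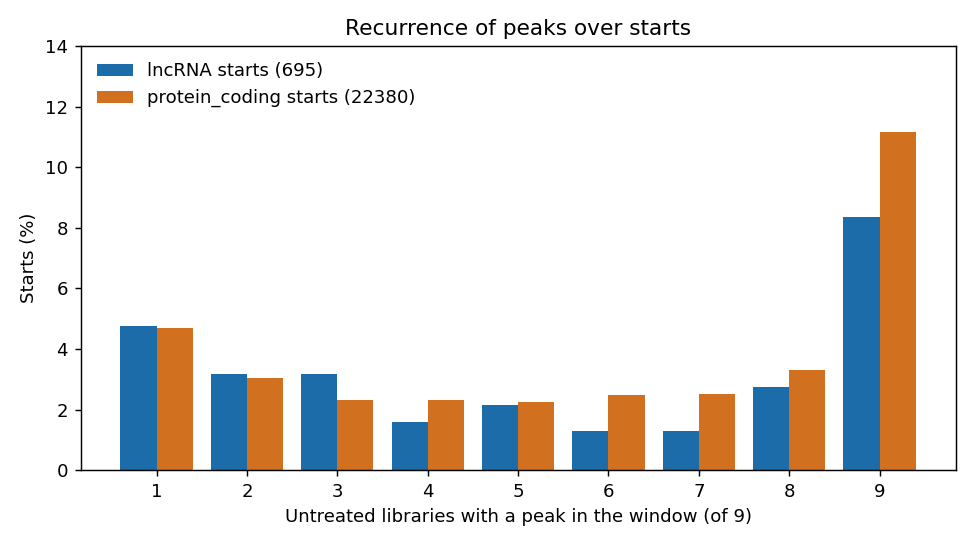
Share of starts (y axis, percent) by the number of untreated libraries with a peak in the window (x axis, 1 to 9), for 695 lncRNA and 22380 protein_coding starts. Both kinds pile up at 9 of 9, with 8.35% of lncRNA starts and 11.2% of coding starts, and starts without any peak, 71.5% and 65.9%, are not drawn.

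Starts called in all 9 libraries had stronger and wider peaks than those called in fewer. For each start the strongest peak of each library was taken. The median over the 58 recurrent starts was 10.5-fold, with starts from 6.48-fold to 32.8-fold, and the median width was 2453 bases. The 140 starts called in 1 to 8 libraries had medians of 5.24-fold and 499 bases. Strength and recurrence both depend on the peak caller's threshold, so this is a description. A peak lay over the start base in all 9 libraries at 26 of the 58 starts and in none at 7. At 13 of the 58, the strongest peak had exactly the same edges in 5 or more libraries. Of the 58, 32 lay antisense to a coding gene, 23 outside coding genes and 3 on the same strand as one.

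Within each library, the median fold of the strongest peak over these 58 starts was 9.66, 12.3 and 11.5 in the siScramble, 12.1, 8.09 and 9.07 in the siDDX1 and 10.6, 9.79 and 15.7 in the siEXOSC3 libraries. The median width was 1556, 3228 and 3423 bases, 3512, 1537 and 2005 bases, and 2203, 2359 and 3362 bases in the same order. The groups overlapped in both. The narrowest values belonged to siScramble replicate 1 and siDDX1 replicate 2, which also had the fewest peaks, 23882 and 24167, of the untreated libraries.

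The strongest recurrent start was that of 2410006H16Rik on chromosome 11, a gene outside coding genes whose human counterpart hosts small nucleolar RNAs. Its fold enrichments were 32.8, 42.7 and 54.0 in the siScramble libraries, 44.1, 32.6 and 31.0 in the siDDX1 libraries and 13.7, 34.2 and 22.8 in the siEXOSC3 libraries. The lowest value belonged to siEXOSC3 replicate 1, and the groups overlapped. The peak was 6649 to 8459 bases wide in the siScramble and siDDX1 libraries but 2175, 5833 and 1975 in the siEXOSC3 libraries, so that the widths of the siEXOSC3 group did not overlap those of the others. With 3 libraries against 3 this was not tested, and the start was chosen by its fold. The widths are those of the strongest peak in each library alone. How many other recurrent starts separate as far was not counted, so no group difference is read from this start.

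Gm16755, antisense to Slc25a10, which encodes a mitochondrial dicarboxylate carrier, had folds of 25.2, 32.0 and 31.5 in siScramble, 29.8, 20.0 and 15.0 in siDDX1 and 31.1, 32.3 and 54.2 in siEXOSC3 libraries. Its window was covered from end to end in all 9. Snhg7, a host of small nucleolar RNAs, had folds of 27.6, 54.5 and 38.1, of 30.4, 22.3 and 8.40 and of 6.83, 29.1 and 53.9 in the same order. The spread within a group at Snhg7 was thus larger than any difference between groups.

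Among these 10 starts, the peak at 9430008C03Rik, now named Snhg17, had the smallest ratio of highest to lowest fold, from 20.9-fold to 35.6-fold over the 9 libraries and from 5277 to 6898 bases. It lay downstream of the start and covered the start base in 0 of 9 libraries. Snhg12 had folds of 17.1 to 34.7, with 1171 bases and the same edges in 5 libraries, and peaks covered its start base in 1 library. The other 5 of the 10 strongest starts, Gm17500, 9930014A18Rik, 2210408F21Rik, E130218I03Rik and 4921514A10Rik, ranged from 9.28-fold to 44.0-fold in single libraries. Of the 10, 6 lay outside coding genes and 4 antisense to one.

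Hosts of small nucleolar RNAs recurred among these names, a grouping made after their values had been seen. Of the 6 starts whose current symbol begins with Snhg, 5 were called in all 9 untreated libraries, namely those of Snhg4, Snhg7, Snhg12, Snhg15 and Snhg17, and Snhg5 in none. Of the 4 starts whose current symbol begins with Mir and ends with hg, which marks microRNA hosts, 0 were called in any untreated library. Of all 695 starts, 8.35% were called in all 9.

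**Figure D4:**
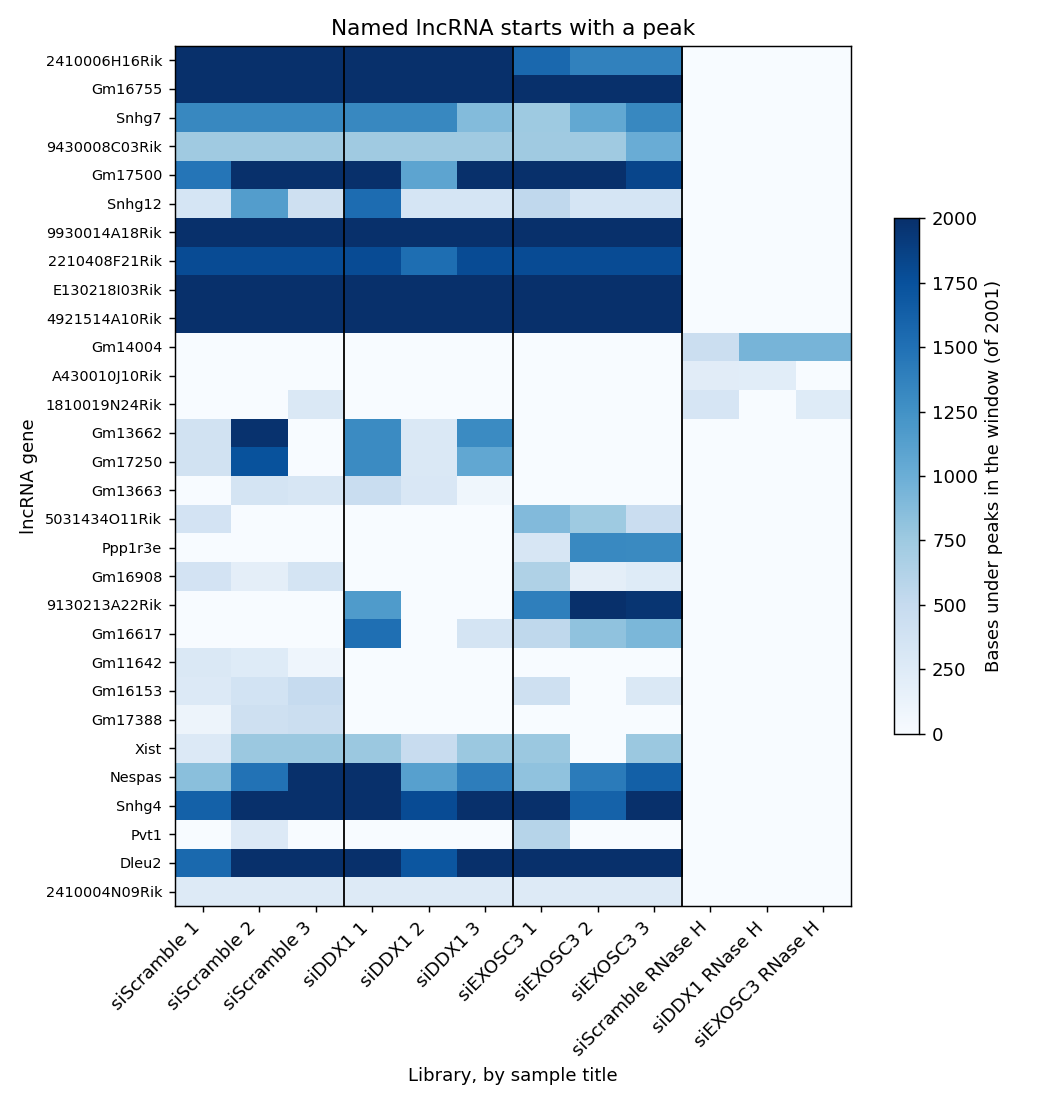
Bases of the 2001-base window under peaks (colour, 0 to 2001) for the 30 named lncRNA starts with at least 1 peak (rows) in each of the 12 libraries (columns, by sample title). The 10 strongest recurrent starts at the top are covered in all 9 untreated libraries and in no RNase H library, and Gm14004 is covered in the 3 RNase H libraries alone.

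A fixed list held 50 names of known lncRNAs, some of them synonyms of 1 gene, and 26 genes on it were among the 695 starts. Peaks were found at 7 of them, 26.9%, in at least 1 untreated library, against 26.0% of all annotated starts and 28.5% of the 695. At 5, 19.2%, they were found in all 9, against 8.54% and 8.35%. The other 19 had none in any untreated library, and 0 of the 26 had a peak after RNase H. The list's group of small nucleolar RNA and microRNA hosts had 5 genes among the starts. Of these, 2 were called in all 9 libraries and 3 in none. Dleu2, described below, was not in that group.

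In the X inactivation group, Xist, the RNA that coats the inactive X chromosome, was called in 8 of 9 libraries. Its folds ran from 5.53 to 14.2, and siEXOSC3 replicate 2 was the library without a peak. In 5 libraries it was 2040 bases wide with the same edges, and it ran from downstream of the start out of the window. Peaks covered the start base in 0 of 9 libraries. Tsix, its antisense regulator, and the starts of Jpx and Ftx had no peak. Of 5 imprinted lncRNAs, Nespas at the Gnas locus was called in all 9, with 11.7, 12.3 and 12.0-fold in siScramble, 12.0, 11.1 and 8.87-fold in siDDX1 and 13.0, 9.70 and 20.8-fold in siEXOSC3 libraries. Those groups overlapped. Meg3, Rian and Mirg of the Dlk1-Dio3 cluster and Airn had no peak.

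Of 6 neural lncRNAs, among them Miat, Sox2ot, Dlx1as, Six3os1 and 1700020I14Rik (Oip5os1), 0 were called, as was the case for 71.5% of all lncRNA starts. The nuclear architecture RNA Firre, 6720401G13Rik in the annotation, and the Hox cluster RNAs Hottip and Hoxa11os, listed as Gm15053 and Hoxa11as, had no peak. Dleu2, the host of the miR-15a and miR-16-1 cluster, was called in all 9 libraries at 12.8-fold to 19.8-fold. Epb41l4aos, listed as 2410004N09Rik, was called in all 9 at 6.41-fold to 11.1-fold. Pvt1, near Myc, was called in siScramble replicate 2 and siEXOSC3 replicate 1 alone, at 4.34-fold and 4.35-fold.

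Where a lncRNA start lay relative to coding genes went with its share of peaks. Starts antisense to a coding gene were called in 24.1% ± 4.22 (SD, n = 9), the 20 starts inside a coding gene on its own strand in 27.8% ± 5.07 and starts outside coding genes in 11.4% ± 2.32. The difference between antisense and outside starts was 12.7 points and was positive in 9 of 9 libraries (exact permutation test with signs flipped within libraries, p = 0.00391, adjusted 0.00586). Over 5 kb from a coding start the shares were 22.9% ± 4.17 of 153 antisense starts and 10.0% ± 2.16 of 361 outside starts. Within 5 kb they were 25.6% ± 5.13 of 120 and 23.3% ± 4.24 of 41, which differed by less than 1 SD over libraries. Both shares came from the same 9 libraries, and their difference within libraries was not tested. A peak inside a coding gene cannot be assigned to a strand here, so an R-loop of the lncRNA and one of the coding gene cannot be told apart.

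The share also went down with distance from the nearest coding start. It was 28.0% ± 5.36 at 1 to 2 kb, 24.6% ± 4.80 at 2 to 5 kb, 18.1% ± 2.52 at 5 to 10 kb, 16.8% ± 3.30 at 10 to 50 kb and 7.13% ± 1.66 beyond 50 kb (SD, n = 9). The neighbouring values at 1 to 2 and 2 to 5 kb, and those at 5 to 10 and 10 to 50 kb, differed by less than 1 SD over libraries. Differences within libraries were not tested for these bins. Peaks that reached from the window over a coding transcript start made up 12.7% ± 2.26 of the peaks at lncRNA starts, and 11.9% ± 3.05 of called windows had no other peak.

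**Figure D5:**
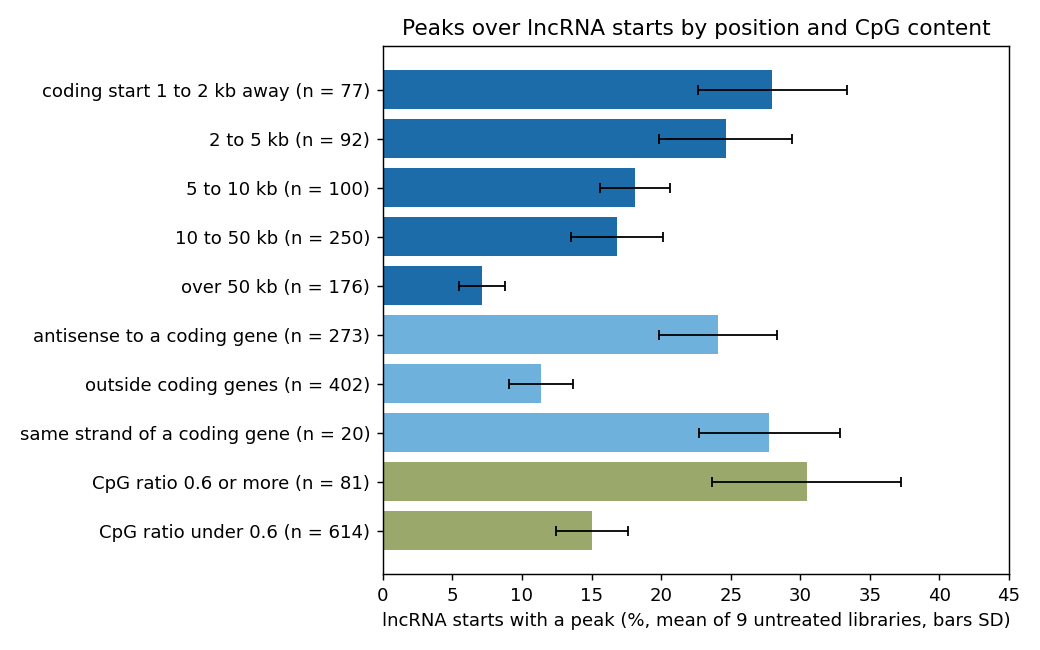
Share of lncRNA starts with a peak (x axis, percent, mean of 9 untreated libraries, error bars SD over libraries) by distance to the nearest coding start, by position against coding genes and by CpG ratio, with the number of starts in each. The share is 28.0% at 1 to 2 kb and 7.13% beyond 50 kb, 24.1% antisense to and 11.4% outside coding genes, and 30.5% and 15.0% above and below a CpG ratio of 0.6.

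Sequence and fragment length also differed between recurrent and silent starts. The median G and C content of the window was 53.1% at the 58 starts called in all 9, 50.0% at the 140 called in 1 to 8 and 47.2% at the 497 called in none. The median CpG ratio was 0.356, 0.329 and 0.300 in the same order. A ratio of 0.6 or more was reached by 24.1% of recurrent lncRNA starts, against 72.3% of recurrent coding starts. The GC skew of the 500 bases downstream, (G − C)/(G + C), had medians of 0.0410 at recurrent and 0.0381 at silent lncRNA starts. The restriction fragment over the start had a median length of 2467 bases at recurrent starts and 1342 bases at silent ones. The part of fragment length in these shares was not tested.

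Peak width was compared with that at coding starts in the same libraries. The median width at lncRNA starts was 661, 1415 and 1066 bases in the siScramble, 1103, 826 and 1245 in the siDDX1 and 840, 949 and 831 in the siEXOSC3 libraries. At coding starts it ran from 735 to 1074 bases. The log2 difference of 0.21 did not pass the threshold (exact permutation test, p = 0.0625, adjusted 0.0625), and it turned to -0.0134 with windows of 2 kb and -0.0621 with the midpoint rule. Without siScramble replicate 1 it was 0.26 (exact permutation test, p = 0.0234) and without siEXOSC3 replicate 1 it was 0.25 (exact permutation test, p = 0.0469). The median fold enrichment was 7.10 ± 0.535 at lncRNA starts and 6.76 ± 0.435 at coding starts (SD, n = 9).

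Whether depletion of DDX1 or EXOSC3 changed R-loops at lncRNA starts was asked over the 9 untreated libraries. The mean shares were 17.3% ± 2.66 in siScramble, 15.3% ± 4.03 in siDDX1 and 17.8% ± 2.37 in siEXOSC3 libraries (SD, n = 3). No difference between groups was larger than the spread between replicates (exact permutation test of F over 280 splits, F = 0.537, p = 0.593, adjusted over share and width 0.686). The pairwise differences were -1.97 points for siDDX1 minus siScramble, 0.53 for siEXOSC3 minus siScramble and 2.49 for siEXOSC3 minus siDDX1 (exact permutation tests, p = 0.6, 1 and 0.4, adjusted over 3 pairs 0.9, 1 and 0.9). With 3 libraries against 3 the smallest p is 0.1. siDDX1 minus siScramble was -4.22 points without siDDX1 replicate 1 and -0.34 without siDDX1 replicate 2. siEXOSC3 minus siDDX1 was 4.75 and 0.86 points without the same libraries, and siEXOSC3 minus siScramble was -1.01 points without siScramble replicate 1 and -0.84 without siEXOSC3 replicate 3. When each untreated library was reduced to its 23882 peaks with the lowest q, F was 4.64 (exact permutation test, p = 0.05), with differences of -1.53, 0.48 and 2.01 points in the same order. The width of the peaks did not differ past the threshold either (exact permutation test, F = 0.400, p = 0.686).

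Few single starts were all-or-none between groups, that is called in each of 3 libraries on one side and absent on the other. Called in 3 siScramble and no siDDX1 library were 4 of 695 starts, 0.576%, against 0.0938% of all annotated starts. They were Gm11642, Gm16908, Gm16153 and Gm17388. The reverse held for 0 starts, against 0.0456%. Called in 3 siScramble and no siEXOSC3 library were 2 starts, 0.288%, against 0.0616%, namely Gm11642 and Gm17388. Both of these comparisons share the siScramble libraries. The reverse, in 3 siEXOSC3 and no siScramble library, held for 3 starts, 0.432%, against 0.348%, namely 9130213A22Rik, Gm16617 and Ppp1r3e. Between the knockdowns, 3 starts, 0.432%, were called in 3 siEXOSC3 and no siDDX1 library, against 0.298%, namely 5031434O11Rik, Ppp1r3e and Gm16908. The reverse held for 3, 0.432%, against 0.0536%, namely Gm13662, Gm17250 and Gm13663.

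The median fold of these 11 starts ran from 4.69 at Gm17388 to 8.19 at 9130213A22Rik. Gm11642, a predicted gene on chromosome 11, had peaks of 5.22, 5.57 and 6.00-fold and 295 to 336 bases in the 3 siScramble libraries and none elsewhere. Gm17388 had 3.88, 4.69 and 5.00-fold and 419 to 446 bases in the same libraries and none elsewhere. Starts called in 1 library only had a median of 4.53-fold, and those called in 1 to 8 libraries one of 5.24-fold.

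Ppp1r3e, named for a regulatory subunit of protein phosphatase 1, had peaks in the siEXOSC3 libraries alone, at 4.97, 7.34 and 5.79-fold. 9130213A22Rik, whose nearest coding start is that of Hes7, a repressor of the somite clock, at 2185 bases, had 8.70, 7.69 and 15.4-fold in the siEXOSC3 libraries and 6.98-fold in siDDX1 replicate 1. Gm16617, at 1609 bases from the start of Arhgef40, a guanine nucleotide exchange factor gene, had 6.21, 6.12 and 6.43-fold in siEXOSC3 libraries, 6.11 and 5.83-fold in 2 siDDX1 libraries and none in siScramble. It was the lone start of 695, or 0.144%, called in at least 2 libraries of each knockdown and in no siScramble library, against 0.174% of all starts.

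Gm13662, Gm17250 and Gm13663 lie next to each other on chromosome 2 and are not independent. Gm13662 and Gm17250 share the same peaks, of 5.67, 4.30 and 5.18-fold in siDDX1 and 4.10 and 5.88-fold in 2 siScramble libraries, and had none in siEXOSC3. Starts called in at least 2 siScramble libraries and in neither knockdown numbered 3, Gm16962, Gm11642 and Gm17388, which is 0.432% of lncRNA starts and compares with 0.174% of all starts. Starts called in at least 2 siEXOSC3 libraries and nowhere else numbered 5, or 0.719%, against 0.582% of all starts.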

How the data were processed

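Peak lists of 9 untreated and 3 RNase H libraries were analysed, and the 1 input sample was not analysed here. Per the labels and the study's methods, the authors aligned reads to mm9 with Bowtie2 2.4.4 and called peaks in each library with MACS2 2.2.6 against input. The deposited lists give each peak's position, its fold (a ratio to local background, not logged) and its q-value as −log10, and these 3 were used. Peaks depend on read depth and on the caller's threshold, and a peak has no strand.

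Groups came from sample titles. A window of 1000 bases on each side of a start was called with at least 1 base under a peak. The genome of the NCBI build NCBIM37 (mm9) gave the sequences, and its build was checked by the restriction cuts at peak edges. Current symbols from RefSeq matched 346 of 695 genes, and 61 had another symbol. The members and lists were chosen with earlier results of these data known. Named starts were the 10 recurrent starts of highest median fold, those with RNase H peaks in 2 or more groups, up to 3 all-or-none starts per comparison and direction, and listed lncRNAs. Exact permutation tests were run over libraries with Python 3.11.15, numpy 2.4.6 and scipy 1.17.1, adjusted by the Benjamini-Hochberg method. Window calls were tested on simulated data, in which 200 of 200 planted peaks were found. Per the study's methods, the replicates of a condition came from separate plates of the 1 cell line, so p-values measure the spread between such cultures.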

Additional observations from a re-analysis of the deposited data

How the results depend on the processing

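Alternatives changed the window (500 bases or 2 kb), the overlap (midpoint, 100 bases), the peaks (−log10 q of at least 5, an equal number per library, joining) and the starts. Those on pseudocounts, on CpG content and on starts antisense to coding genes, which replaced a comparison by gene_type that could not be computed with 0 antisense genes, were chosen after seeing the data. The outcome stayed the same in 116 of 132 alternative values and in 113 of 117 values with 1 library left out. For differences this meant direction and side of the threshold, for F the side alone, and for counts of starts a bounded ratio to the main count. Part of this was fixed in advance. No pairwise group difference can pass the threshold, and leaving out a library of the third group cannot change one. The cause of the changes below was not tested. The width difference between lncRNA and coding starts passed the threshold with windows of 500 bases (0.21), a −log10 q of at least 5 (0.25), equal numbers of peaks (0.25), starts outside coding genes (0.35) and joined peaks (0.40), turned to -0.0134 and -0.0621 with windows of 2 kb and the midpoint rule, and ran from 0.15 to 0.26 with 1 library left out. The lower share of lncRNA starts against coding starts turned to 4.10 points below a CpG ratio of 0.6 and was -13.1 above it, -10.6 outside coding genes and -8.10 without starts within 5 kb of a coding start. With 1 library left out, siDDX1 minus siScramble ran from -4.22 to -0.34 points and siEXOSC3 minus siDDX1 from 0.86 to 4.75. siEXOSC3 minus siScramble was 0 points without starts within 5 kb of a coding start and ran from -1.01 (without siScramble replicate 1) to 1.37 with 1 library left out, and was also below 0, at -0.84, without siEXOSC3 replicate 3. Starts called in all 9 libraries numbered 19 with the midpoint rule, 34 without starts within 5 kb, 23 outside coding genes and 104 over all transcripts, and those called at least once 129, 78 and 310 under the last 3. Same-numbered libraries of different groups did not deviate together (correlations from -0.289 to 0.0895 over 9 pairs). The highest value of any pair, 0.216, joined siScramble replicate 1 and siDDX1 replicate 2, which had the fewest peaks. The correlations were not freed of peak number, so whether the numbers mark a shared batch was not settled. With the replicate block F was 0.396 for the share and 0.332 for the width, with no call changed. Peak lists carry no read counts, so a change of signal within a called window is not seen.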

Other observations

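Starts with names other than Gm and Rik numbers were called in 21.4% ± 2.85 of 51 cases, those with Gm names in 17.6% ± 2.92 of 426 and those with Rik names in 14.3% ± 3.52 of 218 (SD, n = 9 untreated libraries). Of 52 lncRNA starts with a divergent coding start upstream within 5 kb, 28.6% ± 5.64 were called. Hdnr, listed as 5033428I22Rik and lying 11135 bases from the start of Hand2, a transcription factor of sympathetic neurons, was called in all 9 untreated libraries at a median of 10.7-fold and in no RNase H library. Windows of 16 lncRNA starts overlapped that of another lncRNA start, and 0 of these were called in all 9.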
